A study of Rattus norvegicus with 6 samples.

Results

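Antioxidant enzymes and targets of the transcription factor Nrf2 were examined by RNA-seq in rat nucleus pulposus cells (NPCs), the cells of the soft centre of the intervertebral disc. The genes were taken from a list of 40 symbols compiled by function: Nrf2 and its inhibitor, the heme and quinone enzymes, the glutathione and thioredoxin systems, peroxiredoxins, superoxide dismutases, catalase, glutathione peroxidases and transferases, the enzymes that supply NADPH, and ferritin. Of the 40, 36 had a row in the count table, 35 had at least 1 count and 34 passed the filter on low counts, of 11426 genes that passed it in all.

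The cells were primary cultures from the caudal spine of male, wild-type Sprague-Dawley rats, and their age was not given in the labels. The TBHP group (3 libraries) received tert-butyl hydroperoxide, an organic peroxide used to bring on senescence. The TBHP+FGF21 group (3 libraries) received the same oxidant together with recombinant rat FGF21, a secreted hormone of the fibroblast growth factor family. All 6 libraries therefore carried the oxidant, no library without TBHP was analysed here, and the comparison answers how FGF21 altered the transcripts of stressed cells, not how the stress itself altered them. The treatment labels of the TBHP+FGF21 group give a different agent to each library (FGF21, FGF22 and FGF23, in the order of replicates 1 to 3), while the titles and the protocol name FGF21 throughout, which was followed. The labels call the 3 libraries of a group biological replicates without saying whether they came from separate animals, so the p-values measure the spread between these libraries.

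Under basal conditions Nrf2, encoded by Nfe2l2, is bound by Keap1 and sent for degradation. Oxidants and electrophiles modify cysteines of Keap1, Nrf2 then accumulates, pairs with small Maf proteins and binds antioxidant response elements near genes for heme breakdown, quinone reduction, glutathione and thioredoxin metabolism and NADPH supply. Superoxide dismutases turn superoxide into hydrogen peroxide, which catalase, peroxiredoxins and glutathione peroxidases remove. In the disc, which has little blood supply, this defence has been studied in connection with the ageing of its cells.

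The core letters of the antioxidant response element were looked for near the start sites, since they are what joins many of these genes into 1 regulon. The promoters were those of RefSeq on GRCr8, from 250 bases before to 50 bases after each start, and 33 of the 40 members had one. Hmox1 and Sod3 were among those without one. Bases farther from the start were not searched, so a promoter without a match does not show that its gene lacks the element. The motif TGACNNNGC, read on both strands, was found in 10 of these 33 promoters and in 12.1% of all 33469 promoters. The 10 were Nfe2l2, Hmox2, Gclm, Txnrd1, Prdx1, Prdx4, Prdx5, Sod2, Me1 and Idh1. The AP-1 motif TGACTCA, which can lie inside the same letters, was found in 3 of the 33 and in 4.63% of all promoters. The match of Prdx5 is shown for its log2 fold change, far from 0 among the members, although its groups overlapped (edgeR adjusted p = 0.553). With it are shown 4 matches that lie wholly upstream of genes with textbook roles in the glutathione, thioredoxin, peroxiredoxin and NADPH branches. Each is written 5′ to 3′ on the strand of its gene, with the match in capitals, its position counted from 1 at the start site with no zero, and 10 flanking bases on either side.
Gclm, chr2:213031953-213031981, plus strand, match from -172 to -164: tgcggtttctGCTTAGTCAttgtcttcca
Txnrd1, chr7:22755964-22755992, minus strand, match from -78 to -70: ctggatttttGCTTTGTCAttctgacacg
Prdx1, chr5:135383761-135383789, plus strand, match from -135 to -127: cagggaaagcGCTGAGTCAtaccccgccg
Me1, chr8:96540393-96540421, minus strand, match from -167 to -159: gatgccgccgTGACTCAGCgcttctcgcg
Prdx5, chr1:213532010-213532038, minus strand, match from -1 to 8: cctcctgtggGCAGAGTCAtctgcgggtg
The match in Me1 reads forward and those in the other 4 read on the opposite strand, so that GC stands first and GTCA last. In Prdx1 and Me1 the same letters also hold TGACTCA. The log2 fold changes of TBHP+FGF21 over TBHP were 0.01 for Gclm, -0.11 for Txnrd1 and -0.22 for Prdx1. They were -0.03 for Me1 and -0.43 for Prdx5, which was shown because of this value. The remaining genes with a match had -0.04 (Nfe2l2), -0.05 (Hmox2), -0.16 (Prdx4), -0.11 (Sod2) and -0.01 (Idh1). Whether genes with a match differ from one another in size was not tested. A match to these letters is a description of the sequence and not evidence of binding.

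Expression is given as CPM (counts scaled to the same total in each library), scaled by the trimmed mean of M values (TMM), with the mean ± SD of 3 libraries where a group is summarised. The libraries held 1.83e+07 to 2.24e+07 counts, so that 3 counts, the limit that a count of 0 allows, correspond to 0.134 to 0.164 CPM, for counting error only. Among the members tested, 33 of 34 had more than 100 counts in every library. Differences between the groups are log2 fold changes of TBHP+FGF21 over TBHP, with the standard error (SE) and the p of edgeR's quasi-likelihood test, adjusted by Benjamini-Hochberg over all 11426 genes. With 3 libraries against 3, the exact two-sided permutation test of a single gene cannot give a p under 0.1. TBHP+FGF21 replicate 2 stood apart from its group: its Spearman correlation averaged 0.990 with its own group and 0.996 with the TBHP libraries, and TBHP replicate 3 had 0.993 with its own group and 0.994 with the other. These were correlations across genes and describe the libraries only.

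None of the 34 members passed an adjusted p of 0.05 in edgeR's quasi-likelihood test, and none did so with DESeq2 or limma-voom. Across all genes 1 of 11426 passed (0.00875%), Sirt1, and none passed when the counts of the per-sample files, which differ from the combined table for Sirt1, were used. At an unadjusted p under 0.05, 1 member was higher in the TBHP+FGF21 group (Sod3), where 4.63% of all genes were, and 1 was lower (Txn1), where 4.29% of all genes were. The ranges of the groups did not overlap for 2 members, both lower in the TBHP+FGF21 group (Nqo1 and Prdx3), against 5.00% of all genes in that direction. No member lay wholly above the TBHP group, against 4.90% of all genes. These counts are near the background of all genes.

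The members' log2 fold changes ran from -0.49 to 0.53 with a median of -0.06, beside a median of -0.01 over all genes tested. Below 0 were 23 of the 34 members, beside 5834 of all 11426 genes. Most differences were small: 28 members lay within 0.2 of 0 in either direction, beside 7925 of all 11426 genes. Within 0.1 lay 13 members. The SE ranged from 0.085 to 0.27, and the adjusted p from 0.553 to 0.981. The 95% confidence interval lay within 0.5 of 0 for 28 members and within 1 of 0 for all 34.

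**Figure D1:**
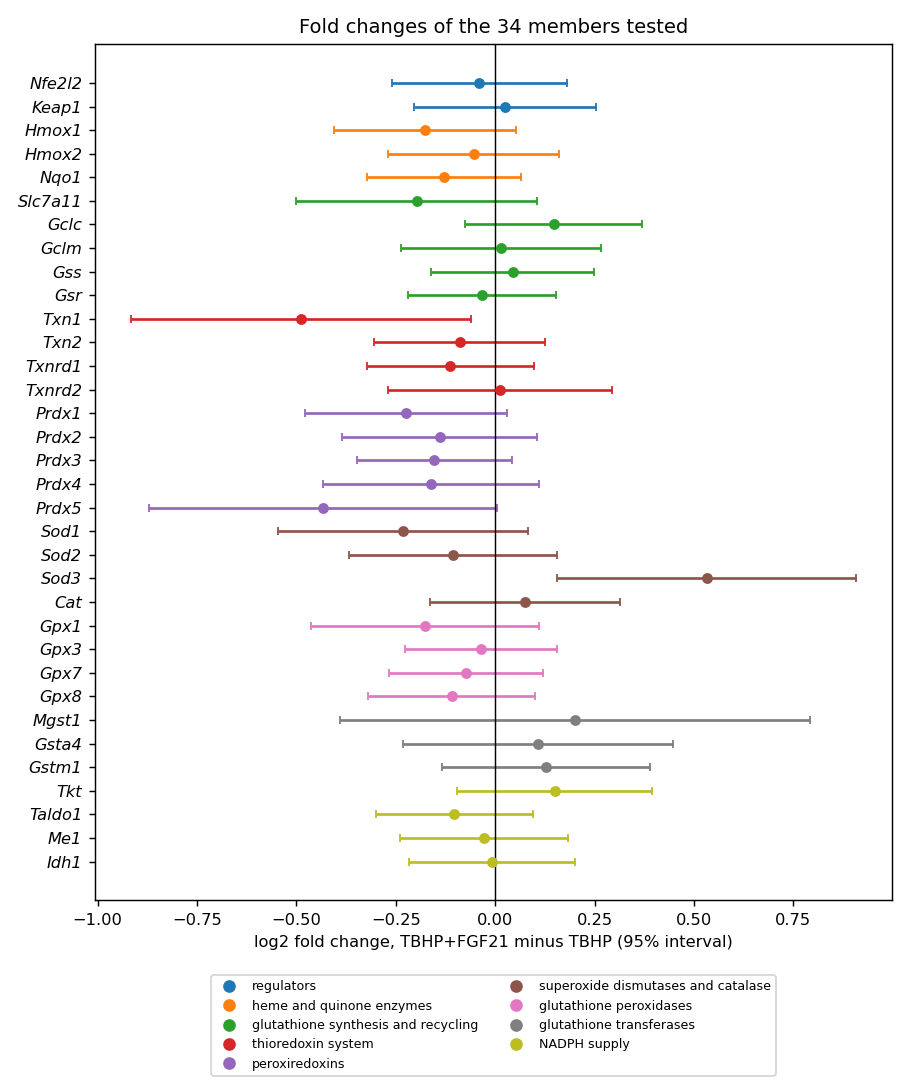
Log2 fold change of TBHP+FGF21 over TBHP (x axis) for the 34 members tested (y axis, grouped by role), with the 95% confidence interval of edgeR's quasi-likelihood fit as a bar. Sod3 at 0.53 and Txn1 at -0.49 are the members farthest from 0, and most intervals cross 0.

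The regulators differed little. Nfe2l2, which encodes Nrf2, had 166, 181 and 207 CPM in the TBHP libraries (replicates 1, 2 and 3) and 188, 176 and 174 CPM in the TBHP+FGF21 libraries. The TBHP+FGF21 libraries lay inside the range of the TBHP group, with means of 185 ± 20.7 and 179 ± 7.42 CPM and a log2 fold change of -0.04 (SE 0.10, edgeR adjusted p = 0.897). Keap1, the adaptor through which Nrf2 is degraded, had 55.5, 45.5 and 45.8 CPM with TBHP alone and 46.5, 51.8 and 50.8 CPM with TBHP+FGF21. Its log2 fold change was 0.03 (95% interval -0.20 to 0.25, edgeR adjusted p = 0.941). Both are transcript levels, and Nrf2 is regulated mainly through the stability of its protein, which these libraries do not measure.

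Among the heme and quinone enzymes, Nqo1, a quinone reductase widely read as a marker of Nrf2 activity, was the most uniform. It had 2142, 2172 and 2137 CPM in the TBHP libraries and 1945, 2018 and 1939 CPM in the TBHP+FGF21 libraries. Every TBHP+FGF21 library was below every TBHP library, and the gap was small: the means were 2151 ± 19.1 and 1967 ± 43.7 CPM, with a log2 fold change of -0.13 (SE 0.09, edgeR adjusted p = 0.628, exact permutation p = 0.1, the smallest possible). Hmox1, the inducible heme oxygenase and another classical target, had 228, 207 and 221 CPM against 198, 214 and 168 CPM. TBHP+FGF21 replicate 2 lay inside the TBHP range and the other 2 libraries below it, with a log2 fold change of -0.18 (95% interval -0.40 to 0.05, edgeR adjusted p = 0.582). Hmox2, the constitutive heme oxygenase, had a mean of 38.0 ± 2.66 CPM with TBHP alone and 36.6 ± 1.91 CPM with TBHP+FGF21. All 3 of these genes had negative log2 fold changes, with a median of -0.13.

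The genes of glutathione synthesis and recycling were divided in sign. Slc7a11, the cystine importer that feeds glutathione synthesis, had 13.9, 13.6 and 12.4 CPM with TBHP alone and 13.1, 11.9 and 9.81 CPM with TBHP+FGF21. Replicate 3 of the TBHP+FGF21 group was the lowest, the groups overlapped, and the log2 fold change was -0.20 (SE 0.14, edgeR adjusted p = 0.630). Gclc, the catalytic subunit of the first and rate-limiting enzyme of glutathione synthesis, had 72.8, 81.4 and 88.5 CPM against 96.1, 90.5 and 82.4 CPM. Replicates 1 and 2 of the TBHP+FGF21 group were above every TBHP library and replicate 3 was within their range, with a log2 fold change of 0.15 (95% interval -0.08 to 0.37, edgeR adjusted p = 0.628). Gclm, the modifier subunit of the same enzyme, was almost level, with 16.8, 14.5 and 15.3 CPM with TBHP alone and 15.6, 15.7 and 15.6 CPM with TBHP+FGF21. Gss, which completes glutathione, and Gsr, which reduces its oxidised form, had log2 fold changes of 0.04 and -0.03.

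The thioredoxin system held the member with the lowest log2 fold change. Txn1, cytosolic thioredoxin, which reduces disulphides in peroxiredoxins and other proteins, had 302, 331 and 186 CPM in the TBHP libraries and 165, 243 and 177 CPM in the TBHP+FGF21 libraries. Replicate 3 of the TBHP group was at the level of the TBHP+FGF21 libraries, and replicate 2 of the TBHP+FGF21 group lay between the others, so the groups overlapped. The means were 273 ± 77.0 and 195 ± 42.0 CPM, and the log2 fold change was -0.49 (95% interval -0.92 to -0.06), with an unadjusted p of 0.0284 and an adjusted p of 0.553 in edgeR's quasi-likelihood test. Txnrd1, the cytosolic reductase that recharges Txn1, had 268, 274 and 293 CPM against 269, 271 and 233 CPM, a log2 fold change of -0.11 (edgeR adjusted p = 0.681). The mitochondrial partners Txn2 and Txnrd2 had log2 fold changes of -0.09 and 0.01. Srxn1, which repairs overoxidised peroxiredoxins, was not analysed here.

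All 5 peroxiredoxins measured, the peroxidases that thioredoxin recharges, had negative log2 fold changes, with a median of -0.16, and none passed the adjusted test. Prdx5, found in mitochondria, peroxisomes and cytosol, had 868, 782 and 520 CPM with TBHP alone and 416, 697 and 493 CPM with TBHP+FGF21. Its libraries were ordered like those of Txn1: TBHP replicates 1 and 2 were the highest, TBHP+FGF21 replicate 1 the lowest, and TBHP+FGF21 replicate 2 was above TBHP replicate 3. The log2 fold change was -0.43 (SE 0.20, edgeR unadjusted p = 0.0516 and adjusted p = 0.553). Prdx1, an abundant cytosolic member, had 368, 440 and 338 CPM against 303, 363 and 314 CPM, a log2 fold change of -0.22 (95% interval -0.48 to 0.03, edgeR adjusted p = 0.559). Prdx3, the mitochondrial peroxiredoxin, had 165, 176 and 166 CPM with TBHP alone and 156, 158 and 142 CPM with TBHP+FGF21. Its groups did not overlap, yet the difference was small, at -0.15 on the log2 scale (SE 0.09, edgeR adjusted p = 0.580, exact permutation p = 0.1). Prdx2 and the endoplasmic reticulum form Prdx4 had log2 fold changes of -0.14 and -0.16, and Prdx6 was not analysed here.

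The superoxide dismutases, which differ in where they act, also differed in sign. Sod3, the secreted extracellular dismutase, had 488, 439 and 525 CPM in the TBHP libraries and 716, 492 and 891 CPM in the TBHP+FGF21 libraries. Replicates 1 and 3 of the TBHP+FGF21 group were above every TBHP library, and replicate 2 lay inside the TBHP range. The means were 484 ± 43.3 and 699 ± 200 CPM, a fitted 1.45-fold difference with a log2 fold change of 0.53 (95% interval 0.16 to 0.91), an unadjusted p of 0.0095 and an adjusted p of 0.553 in edgeR's quasi-likelihood test. Sod1, the cytosolic copper and zinc enzyme, had 139, 141 and 98.4 CPM against 91.0, 121 and 110 CPM. The groups overlapped, with a log2 fold change of -0.23 (SE 0.14, edgeR adjusted p = 0.592). Sod2, the mitochondrial manganese enzyme, had 54.3, 56.7 and 45.2 CPM against 42.7, 55.2 and 47.3 CPM, a log2 fold change of -0.11 (edgeR adjusted p = 0.761). Catalase (Cat), the peroxisomal enzyme that splits hydrogen peroxide, had 140, 146 and 171 CPM with TBHP alone and 168, 141 and 172 CPM with TBHP+FGF21. The catalase ranges of both groups nearly coincided, and the log2 fold change was 0.07 (edgeR adjusted p = 0.818).

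**Figure D2:**
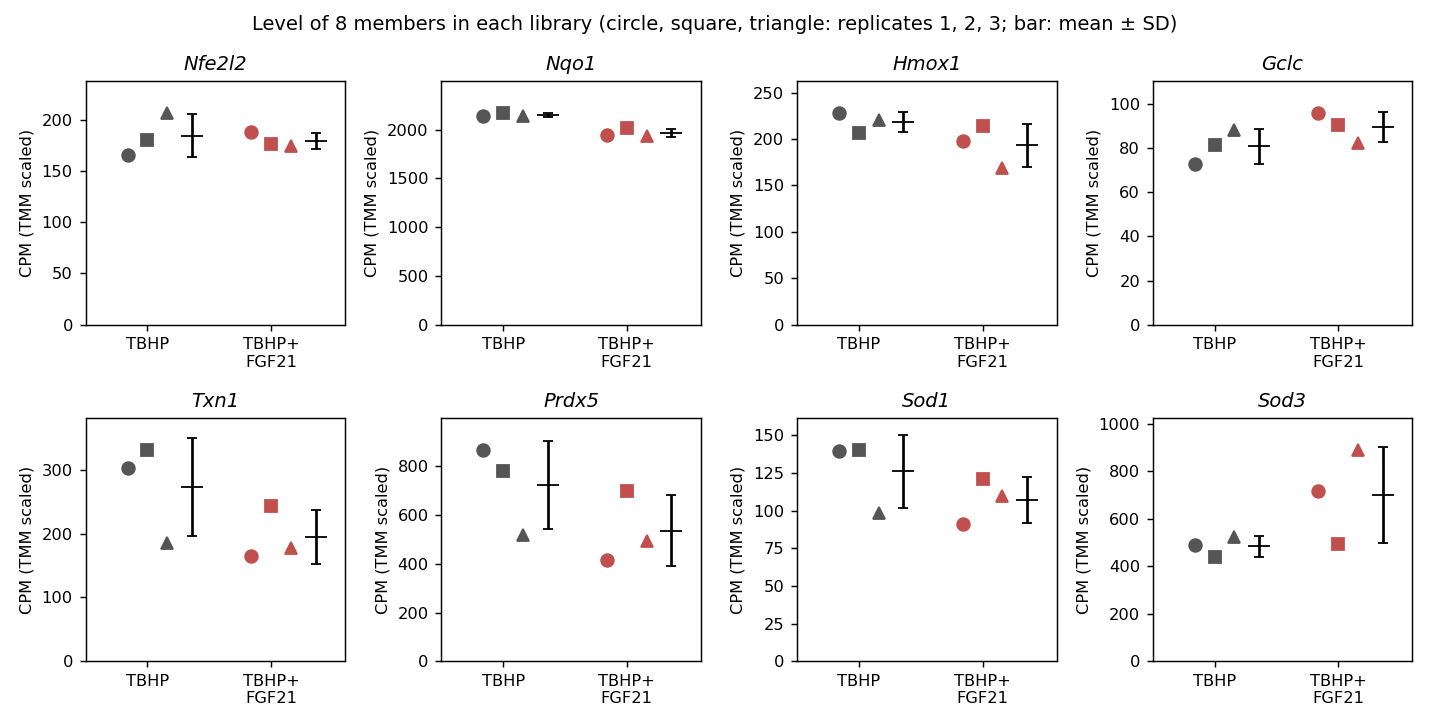
Level in CPM (y axis, TMM scaled, from 0) of 8 members in each library of the TBHP and TBHP+FGF21 groups, with circle, square and triangle for replicates 1, 2 and 3 and a bar for mean ± SD. Sod3 is high in TBHP+FGF21 replicates 1 and 3 at 716 and 891 CPM and not in replicate 2 at 492 CPM, while Nqo1 separates the groups by a narrow gap.

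Of the 5 glutathione peroxidases on the list, 4 were tested and all 4 had negative log2 fold changes, with a median of -0.09. Outside the list, Gpx2, with 7 to 19 counts per library, had a positive log2 fold change of 0.32 (SE 0.41, edgeR adjusted p = 0.795). Gpx1, the cytosolic enzyme that reduces hydrogen peroxide, had 346, 312 and 237 CPM with TBHP alone and 240, 278 and 274 CPM with TBHP+FGF21. The TBHP+FGF21 libraries all lay within the TBHP range, and the log2 fold change was -0.18 (SE 0.13, edgeR adjusted p = 0.641). Gpx3, the secreted form, had means of 116 ± 4.83 and 113 ± 5.36 CPM. Gpx7 and Gpx8, which act in the endoplasmic reticulum, had log2 fold changes of -0.07 and -0.11. Gpx4, the lipid hydroperoxide reductase that guards against ferroptosis, had 1, 3 and 2 counts in the TBHP libraries and 0, 6 and 1 counts in the TBHP+FGF21 libraries, too few to test. Ferritin heavy chain, Fth1, which stores iron, was listed at 0 counts in all 6 libraries, and Ftl1 was not analysed here. Reads that map to several places were left out of the counts by the authors' pipeline and made up 6.27% to 7.02% of each library, and whether they include reads of Gpx4 or Fth1 was not tested.

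The 3 glutathione transferases on the list had small positive values. Transferases outside the list were divided in sign. Mgst2, Gsto1, Gstz1 and Gstk1 had log2 fold changes of -0.21, -0.11, -0.07 and -0.02, and Gstp1, Gstt1, Mgst3 and Gstt2 had 0.01, 0.07, 0.10 and 0.18. Mgst1, a membrane-bound transferase, had 2.18, 1.99 and 2.06 CPM with TBHP alone and 2.27, 1.58 and 3.27 CPM with TBHP+FGF21. With 33 to 75 counts per library it was the least precise member, and its log2 fold change of 0.20 had an SE of 0.27 (edgeR adjusted p = 0.803). Gstm1, a cytosolic transferase, had 20.8, 18.4 and 18.7 CPM against 21.0, 18.8 and 23.4 CPM, and the groups overlapped, with a log2 fold change of 0.13 (SE 0.12, edgeR adjusted p = 0.710). Gsta4, which conjugates the lipid peroxidation product hydroxynonenal, had a log2 fold change of 0.11 (edgeR adjusted p = 0.814). In the NADPH group, Tkt, a transketolase of the pentose phosphate pathway, had 567, 503.9 and 554 CPM against 572, 535 and 695 CPM. Replicate 3 of the TBHP+FGF21 group stood above the other 5 libraries, and the log2 fold change was 0.15 (SE 0.11, edgeR adjusted p = 0.643). Taldo1 in the same pathway had -0.10, and the malic enzyme Me1 and the isocitrate dehydrogenase Idh1, which make NADPH in the cytosol, had -0.03 and -0.01. Pgd was not analysed here.

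Seen by library, the highest value of a member was most often in TBHP replicate 2 (12 of 34 members) and TBHP replicate 1 (10 of 34), where 18.6% and 17.7% of all genes had theirs. The lowest was most often in TBHP+FGF21 replicate 1 (13 of 34, against 17.4% of all genes). TBHP+FGF21 replicate 2 held the highest value of no member and the lowest of 3, where 10.3% and 10.6% of all genes had theirs. For Txn1, Prdx5 and Sod1 it lay below TBHP replicates 1 and 2 and above all other libraries. Within the TBHP group the members had a median coefficient of variation of 8.0%, and within the TBHP+FGF21 group 8.06%. Txn1 (28.2% and 21.5%) and Prdx5 (25.1% and 27.1%) varied widely in both groups, and Sod3 varied by 8.95% in the TBHP group and 28.6% in the TBHP+FGF21 group.

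**Figure D3:**
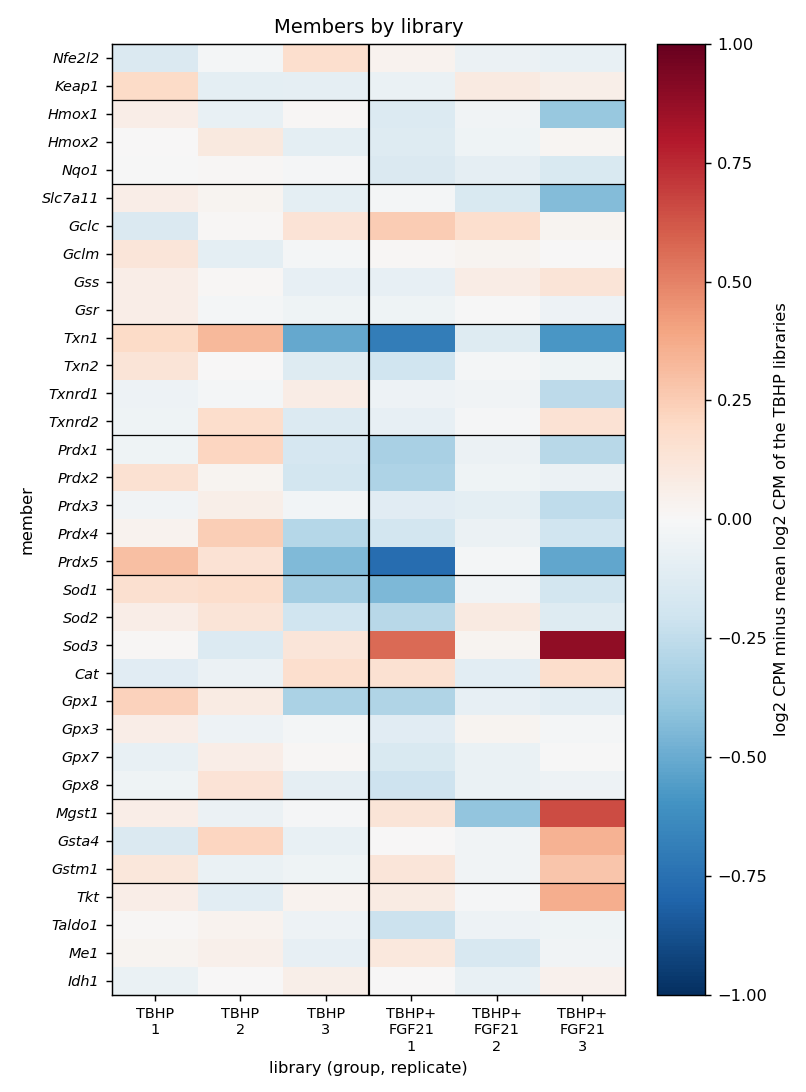
Each row is a member, grouped by role, and each column a library. The colour is the log2 CPM minus the mean log2 CPM of the 3 TBHP libraries. Txn1, Prdx5 and Sod1 are blue in TBHP replicate 3 as well as in TBHP+FGF21 replicates 1 and 3, and Sod3 is red in TBHP+FGF21 replicates 1 and 3.

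A large gene group outside the list followed the same libraries. The summed level of 60 ribosomal protein genes, a group taken up after the values had been seen, was 28690, 28765 and 20784 CPM in the TBHP libraries and 19317, 24962 and 20165 CPM in the TBHP+FGF21 libraries. As for Txn1, Prdx5 and Sod1, TBHP replicate 3 was near the level of the TBHP+FGF21 group and TBHP+FGF21 replicate 2 lay in between. The ribosomal protein genes had a median log2 fold change of -0.34, with 59 of 60 lower, beside 5834 of all 11426 genes. Their part in the values of Txn1, Prdx5 and Sod1 was not tested.

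Leaving out each library in turn changed which members passed. Without TBHP+FGF21 replicate 2, 3 members passed an adjusted p of 0.05 in edgeR's quasi-likelihood test, where 7.50% of all genes did. Sod3 then had a log2 fold change of 0.74 (SE 0.12, edgeR adjusted p = 0.00102), Prdx5 -0.66 (SE 0.16, edgeR adjusted p = 0.0198) and Txn1 -0.67 (SE 0.17, edgeR adjusted p = 0.0233). At an unadjusted p under 0.05 there were 7 members, these 3 with Prdx1 at -0.30, Sod1 at -0.32, Hmox1 at -0.25 and Tkt at 0.24, where 23.6% of all 11559 genes tested in that fit were called. Without TBHP replicate 3, 7 members had an unadjusted p under 0.05 (Sod3, Txn1, Prdx1, Prdx4, Prdx5, Sod1 and Gpx1), beside 15.3% of all genes, and none passed the adjusted test, the lowest edgeR adjusted p being 0.241 for Txn1 and Prdx5. These shares of members were near those of all genes.

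Without any 1 of the other 4 libraries, Sod3 was the only member with an unadjusted p under 0.05. The share of all genes called in these fits was 4.41% without TBHP replicate 1, 2.92% without TBHP replicate 2, 4.15% without TBHP+FGF21 replicate 1 and 2.96% without TBHP+FGF21 replicate 3, so 1 of 34 members was near the background. The log2 fold change of Sod3 log2 fold change was 0.33 without TBHP+FGF21 replicate 3, the lowest of the 6 fits, and 0.74 without replicate 2, the highest. Txn1 ranged from -0.69 without TBHP replicate 3 to -0.33 without TBHP replicate 2, and Prdx5 from -0.66 to -0.27. The sign of these 3 members was kept in every such fit, while for each of them the largest size in these fits was over 1.5 times the smallest.

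**Figure D4:**
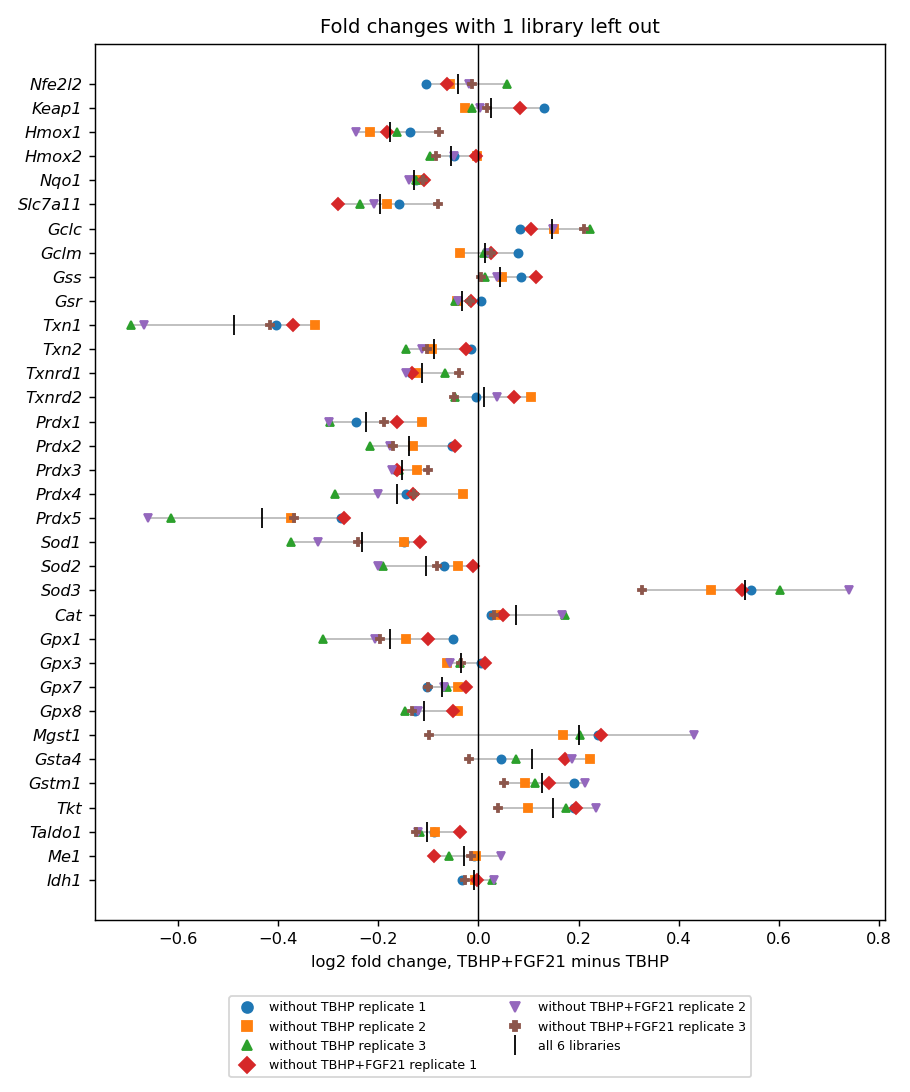
Log2 fold change of TBHP+FGF21 over TBHP with all 6 libraries and with each library left out in turn, for the members shown. Sod3 runs from 0.33 to 0.74 and Txn1 from -0.69 to -0.33, and their values farthest from 0 are those without TBHP+FGF21 replicate 2 and without TBHP replicate 3, respectively.

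Another 75 genes around the same pathways were read beside the members: partners of Nrf2, further target enzymes, glutathione and thioredoxin genes, protein repair and sources of oxidants. Of these, 66 were tested, 29 were higher and 37 lower, the median log2 fold change was -0.02, and none passed the adjusted test in edgeR. At an unadjusted p under 0.05, 5 of the 66 were higher and 3 lower, beside 4.63% and 4.29% of all genes, and each of these 8 had an edgeR adjusted p of 0.553. Of the 66, 4 lay wholly above the TBHP libraries and 4 wholly below them, beside 4.90% and 5.00% of all genes. Osgin1, an oxidative stress-induced target of Nrf2, had 1.79, 1.5 and 2.58 CPM with TBHP alone and 4.41, 2.87 and 3.66 CPM with TBHP+FGF21, with no overlap and a log2 fold change of 0.90 (SE 0.25). Bach1, a repressor that competes with Nrf2 for the same elements, was also higher without overlap, with 13.3, 13.7 and 16.1 CPM against 19.3, 16.5 and 17.7 CPM, a log2 fold change of 0.31 (SE 0.13). Aox1, an aldehyde oxidase, and Sesn3, a stress-induced sestrin, had log2 fold changes of 0.50 (SE 0.20) and 0.29 (SE 0.13), with overlapping groups. In TBHP+FGF21 replicate 2, Aox1 had 41.5 CPM, below every TBHP library (45.3 to 51.1 CPM). Sesn3 had 40.2 CPM in that library, inside the TBHP range of 34.4 to 42.1 CPM.

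Among the sources of oxidants, Xdh, a xanthine oxidoreductase that can form superoxide, had 235, 251 and 268 CPM with TBHP alone and 348, 250 and 424 CPM with TBHP+FGF21. TBHP+FGF21 replicate 2 was level with the TBHP libraries, as for Sod3, and the log2 fold change was 0.44 (SE 0.16). Nox4, a peroxide-producing NADPH oxidase, had 2.23, 2.81 and 2.72 CPM against 1.66, 1.96 and 1.70 CPM, all lower, with a log2 fold change of -0.55 (SE 0.22). Cyba, the membrane subunit that Nox4 needs, had 66.7, 63.3 and 49.97 CPM against 40.3, 58.0 and 43.6 CPM, a log2 fold change of -0.34 (SE 0.15). Ggct, which breaks down the glutamyl peptides of glutathione turnover, had 3.24, 3.63 and 2.72 CPM against 1.37, 1.96 and 2.62 CPM, a log2 fold change of -0.68 (SE 0.25). These 8 genes are those with an unadjusted p under 0.05 and none is called by the adjusted test.

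The labelled cell type was read against marker lists. Of 12 notochordal or nucleus pulposus markers, 10 had a row and 5 were tested. Tbxt, Shh and Noto were at 0 counts in every library, Krt8 had a mean of 3.82 CPM with TBHP alone and 2.83 CPM with TBHP+FGF21, and Pax1 had 220 and 319 CPM. The summed level of this list was 259 to 278 CPM in the TBHP libraries and 271 to 454 CPM in the TBHP+FGF21 libraries. Most of this sum was Pax1. Among the 5 tested, Pax1 and Foxf1 were higher in the TBHP+FGF21 group, and Krt8, Car3 and Cd24 were lower. Of the 7 chondrocytic matrix markers, Acan, the aggrecan core protein, had 2709 and 3565 CPM, Col2a1 had 0.60 and 0.49 CPM and Matn1 was at 0, with sums of 2612 to 3050 CPM and 2968 to 4465 CPM. The 8 fibroblast and annulus markers summed to 42910 to 47266 CPM and 31880 to 44722 CPM, most of it Col1a1, and Tnmd was at 0. Of these, Postn and Scx had an unadjusted p under 0.05 in edgeR, with log2 fold changes of -0.43 and -0.39. In the nucleus pulposus and chondrocytic lists Pax1, Acan and Sox9 also had one, in the other direction, at 0.54, 0.40 and 0.56. For Pax1, Acan, Sox9 and Scx, TBHP+FGF21 replicate 2 lay inside the TBHP range, at 224, 2864, 6.13 and 128 CPM. For Postn the groups did not overlap. The edgeR adjusted p was 0.553 for each of these markers. Col1a2, which encodes the partner chain of Col1a1 in type I collagen, had only 7 to 17 counts per library, so whether a gene listed at or near 0 in this table lacked transcripts was not tested. Macrophage markers summed to 32.2 to 38.2 CPM and 26.8 to 33.0 CPM, nearly all of it Cd14, with Ptprc, Adgre1 and Mrc1 at 0, and endothelial and erythroid markers summed to at most 0.53 CPM and 0.05 CPM. Fewer cells of a type and less RNA per cell cannot be told apart in such libraries, and the part of these marker differences in the members' values was not tested.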

How the data were processed

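RNA was selected by poly(A) and prepared with a directional kit. STAR and featureCounts are named in the submitters' processing notes, and the genome build and annotation are not given in the sources used here. The authors deposited raw whole-number counts per gene identifier for each library, with columns for each strand, and a combined table of counts per symbol. The combined table that the authors deposited was handled in the class of estimated counts because 22 rows, none of them a member, are not whole numbers and were rounded up. Unstranded counts were used. The strand columns held nearly equal totals (ratio 0.977 to 0.986), so they do not separate strands either, and reads of a gene and of an antisense partner cannot be told apart.

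Libraries were grouped by title and compared with edgeR 4.0.16 in R 4.3.3: TMM, filterByExpr (minimum count 10, minimum total 15), condition only, quasi-likelihood F-test, Benjamini-Hochberg adjustment over 11426 genes. SE was taken as the size of the log2 fold change over √F. No library repeated another (chi-square per gene from 6.94 to 58.4 over 15 pairs). The alternatives used limma 3.58.1, DESeq2 1.42.0, other scalings, filters, count columns, a replicate block and leaving out each library. The members and lists were chosen with earlier results of these data known. Every member was accounted for, with values per library for the regulators, members at an unadjusted p under 0.05, and at least the member of smallest p in each role. Wider pathway genes were named at an unadjusted p under 0.05 or as further tested glutathione peroxidases and transferases, and copies by their symbols. The fits were tested on simulated data. No overlap, enrichment or list test was run, and the paper's other assays were not analysed here.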

Additional observations from a re-analysis of the deposited data

How the results depend on the processing

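Of 543 values of single members under the alternatives, 520 kept their direction and side of the adjusted threshold, 3 passed it (Sod3, Prdx5 and Txn1 without TBHP+FGF21 replicate 2) and 20 turned sign, in 10 members, of which Mgst1, at 0.20, and Gsta4, at 0.11, had the largest log2 fold changes. The members' median log2 fold change lay between -0.08 and -0.04 under other settings and between -0.08 and -0.02 leaving out a library. The cause of each change below was not tested. Genes past an adjusted p of 0.05 numbered 1 in edgeR's quasi-likelihood test, 5 with no filter on low counts, 2 with the replicate block and 4 with DESeq2's Wald test. They numbered 0 with the per-sample unstranded counts (1082 at an unadjusted p under 0.05), 0 with the per-sample strand column (1049) and 0 with limma-voom (996), and between 0 and 867 leaving out a library. Members at an unadjusted p under 0.05 numbered 2 of 34, beside 8.92% of all genes, and 4 with the replicate block (Sod3 higher, Txn1, Prdx5 and Prdx1 lower), beside 14.0% of all genes. They numbered 3 with no filter and 3 with the strand column, where Prdx5 was added, beside 9.66% and 8.77% of all genes, and between 1 and 7 leaving out a library.

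The replicate numbers gave no clear pairing: the deviations of same-numbered libraries correlated at -0.12, 0.21 and 0.15 for numbers 1, 2 and 3. TBHP+FGF21 replicates 2 and 3 correlated best with the TBHP library of the same number, and replicate 1 with TBHP replicate 3 (0.18). Whether the samples were paired cannot be told from these values. With the per-sample strand column the log2 fold change was -0.069 for Txnrd2, -0.0872 for Mgst1 and 0.0387 for Idh1. For Idh1 it was also 0.0138 with library size only and 0.0034 with no filter. Leaving out a library, the log2 fold changes that turned sign ranged from -0.105 to 0.0571 for Nfe2l2, -0.026 to 0.131 for Keap1, -0.0367 to 0.08 for Gclm, -0.0476 to 0.0059 for Gsr, -0.0488 to 0.105 for Txnrd2, -0.0619 to 0.0122 for Gpx3, -0.0992 to 0.431 for Mgst1, -0.018 to 0.224 for Gsta4, -0.0885 to 0.0442 for Me1 and -0.0323 to 0.0309 for Idh1. The stricter filter gave no value for Mgst1. With 3 libraries a group and SEs of 0.085 to 0.27, differences of the size seen for most members were not detectable.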

Other observations

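Close copies of 3 members had rows of their own. Prdx1l1, named as a copy of Prdx1, had 19, 21 and 14 counts in the TBHP libraries and 11, 10 and 9 counts in the TBHP+FGF21 libraries. Ftl1l1, named as a copy of Ftl1, had 9, 15 and 8 counts against 4, 7 and 6. Fth1-ps5, a pseudogene of Fth1, had 24, 28 and 25 counts against 22, 25 and 17, while Fth1 itself was listed at 0. Values of Prdx1 are uncertain to the extent that its reads also fit a copy.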
